A study of Mus musculus with 16 samples.

Results

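The HoxA cluster is a row of homeobox genes on mouse chromosome 6, and 10 of its genes (Hoxa2, Hoxa3, Hoxa4, Hoxa5, Hoxa6, Hoxa7, Hoxa9, Hoxa10, Hoxa11 and Hoxa13) were followed here. They were chosen by gene symbol, with earlier results of these data known, from the 53379 genes counted in each library. Hox genes encode transcription factors that give cells their position along the head-to-tail axis. Their order on the chromosome matches the order of their expression along the body, with anterior genes at the 3′ end and posterior genes at the 5′ end. The cerebral cortex lies in front of the Hox domains, and Hox clusters in forebrain cells are classic targets of Polycomb repressive complex 2 (PRC2), which places trimethylation on lysine 27 of histone H3 (H3K27me3) and needs its subunit Eed to do so.

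The libraries came from the neocortex of mice at postnatal day 4 (P4), labelled CD1 and, by the study's methods, of mixed C57BL/6 and CD1 background, and all animals carried MADM cassettes on chromosome 7, Emx1-cre and the XGFAP-lacZ transgene. MADM (mosaic analysis with double markers) labels single cells by recombination between homologous chromosomes, and green (GFP+) cells were sorted as lacZ+ astrocytes or lacZ- neurons. In wild type animals the green cells were Eed+/+ (5 astrocyte libraries and 2 neuron libraries), and in heterozygous, mosaic animals they were Eed-/- (5 astrocyte libraries and 3 neuron libraries). Green cells of either genotype hold both copies of chromosome 7 from the father, Emx1-cre restricts recombination to the dorsal forebrain lineage, and each library is a bulk sample of 1 animal. The labels of 1 further library contradict each other on the cell type, and it entered no comparison.

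Depth limited what could be seen of genes this scarce. Between 211736 and 3178529 reads fell on genes per library, and 10 of the 15 libraries reached 1000000 uniquely aligned reads and a unique share of 60%. Those that did not were Eed+/+ astrocyte replicate 3, Eed-/- astrocyte replicates 1, 3 and 4 and Eed+/+ neuron replicate 2. Eed itself had 88, 204, 2, 85 and 41 reads in Eed+/+ astrocytes and 0, 26, 0, 0 and 14 in Eed-/- astrocytes. It had 121 and 26 reads in Eed+/+ neurons and 21, 74 and 53 in Eed-/- neurons, where counts over the whole gene do not separate the deleted part. Of 12 astrocyte markers, 4 were detected in Eed-/- astrocyte replicate 4, 10 in replicate 1 and all 12 in each other astrocyte library. In the neuron libraries the 12 astrocyte markers summed to between 8845 and 15385 counts per 1000000 gene reads (CPM, scaled by edgeR's TMM factors), against 1042 to 2740 for the 10 neuron markers, so these libraries are called neurons by their sort and label. The astrocyte sum was lower than in every neuron library in Eed+/+ astrocyte replicate 3 (5711 CPM) and Eed-/- astrocyte replicates 1 and 4 (4464 and 6349 CPM), and at 21416 CPM or more in the other astrocyte libraries. Forebrain markers were present in all 5 neuron libraries (391 to 949 CPM over 5 genes).

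The promoters of 4 members are shown because the counts turn on them. Hoxa7 and Hoxa10 held most HoxA reads of Eed-/- neurons, Hoxa2 was the member with the most reads in Eed-/- astrocytes, and Hoxa6, the neighbour of Hoxa7, had no read in any library. Each is the RefSeq (GRCm38.p6) sequence from 250 bases before to 50 bases after a start site, 5′ to 3′ on the minus strand, with every CG pair in capitals.
Hoxa2, chr6:52164782-52165081, minus strand: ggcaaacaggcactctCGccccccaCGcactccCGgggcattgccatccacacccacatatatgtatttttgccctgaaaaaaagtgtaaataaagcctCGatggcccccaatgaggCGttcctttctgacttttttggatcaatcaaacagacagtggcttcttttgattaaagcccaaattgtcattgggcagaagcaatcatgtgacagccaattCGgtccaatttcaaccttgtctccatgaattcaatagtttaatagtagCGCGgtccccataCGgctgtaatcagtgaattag
Hoxa6, chr6:52208623-52208922, minus strand: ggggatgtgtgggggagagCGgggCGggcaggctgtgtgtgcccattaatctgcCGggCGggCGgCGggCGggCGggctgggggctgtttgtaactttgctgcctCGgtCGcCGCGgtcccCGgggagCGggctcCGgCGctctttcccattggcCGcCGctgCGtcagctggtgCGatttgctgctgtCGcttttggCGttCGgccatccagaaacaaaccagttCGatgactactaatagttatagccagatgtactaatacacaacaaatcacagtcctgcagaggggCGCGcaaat
Hoxa7, chr6:52218524-52218823, minus strand: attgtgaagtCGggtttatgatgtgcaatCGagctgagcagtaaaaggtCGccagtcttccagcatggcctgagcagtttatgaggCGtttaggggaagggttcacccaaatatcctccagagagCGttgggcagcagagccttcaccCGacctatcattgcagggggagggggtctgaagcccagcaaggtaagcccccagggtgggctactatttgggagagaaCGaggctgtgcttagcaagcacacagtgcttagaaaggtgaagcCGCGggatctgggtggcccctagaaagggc
Hoxa10, chr6:52234890-52235189, minus strand: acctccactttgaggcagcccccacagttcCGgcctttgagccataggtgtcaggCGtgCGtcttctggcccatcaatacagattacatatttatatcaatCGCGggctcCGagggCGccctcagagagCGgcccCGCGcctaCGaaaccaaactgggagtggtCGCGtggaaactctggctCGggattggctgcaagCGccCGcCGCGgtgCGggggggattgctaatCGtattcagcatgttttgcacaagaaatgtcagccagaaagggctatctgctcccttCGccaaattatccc
The Hoxa10 sequence belongs to the more downstream of 2 annotated start sites, 5915 bases inside the longest gene model, and the Hoxa7 site lies 3281 bases inside. The other Hoxa10 site, at the start of that gene model, held 12 CG pairs with an observed to expected CG ratio of 0.596.

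RefSeq promoters were given for 9 of the 10 members, with none for Hoxa4, and made 10 sequences with both Hoxa10 sites. CpG-rich start sites are the usual landing places of PRC2, so the density of CG pairs was described for each. The 4 printed promoters held 9 (Hoxa2), 26 (Hoxa6), 9 (Hoxa7) and 21 (Hoxa10) CG pairs, and the median over all 32851 mouse promoters of the table was 7. Their ratios of observed to expected CG were 0.589, 0.923, 0.405 and 0.853 in the same order, against a median of 0.384 over all promoters. Over the 10 HoxA sequences the median was 17.5 CG pairs and the median ratio 0.722. The lowest ratio was at Hoxa9 (0.280), at a site 3719 bases inside the gene model, and the highest at Hoxa5 (1.02). Hoxa6, without a read, had a higher ratio than Hoxa7, with the most reads. The counts do not show which start sites were in use, and whether the ratio goes with the reads was not tested. The letters TGATTNA, which joint PBX and HOX sites contain, were searched on both strands and matched at 2 places in the Hoxa2 promoter, as TGATTAA at bases 167 to 173 and as TGATTGA on the opposite strand at bases 141 to 147, counted from the first base printed. They were in none of the other HoxA promoters and in 10.3% of all promoters. The letters TTTATGG, a form of the CDX motif, were in no HoxA promoter and in 2.75% of all. Only this exact form was searched, so other forms of the motif are not covered.

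**Figure D1:**
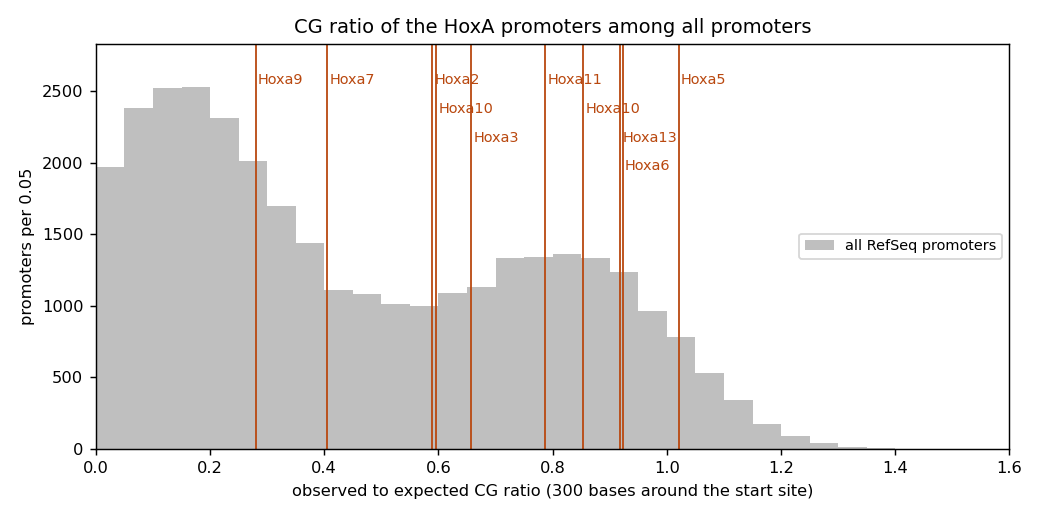
Histogram of the observed to expected CG ratio (x axis) over 300-base RefSeq promoters, in number of promoters per bin of 0.05 (y axis), with a vertical line for each of the 10 HoxA promoters. HoxA promoters spread from 0.280 (Hoxa9) to 1.02 (Hoxa5), and 9 of 10 lie above the median of all promoters (0.384).

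In neurons, HoxA reads were found in all 3 Eed-/- libraries and in neither Eed+/+ library. The Eed-/- neurons held 87, 77 and 89 HoxA reads, which is 68.1, 39.5 and 56.0 CPM, and 8 of the 10 members had a read in at least 1 of them. The Eed+/+ neurons held 0 of 2130476 gene reads, and 3 reads over both libraries, the limit that a count of 0 allows, would be 1.41 CPM. The pooled level of the 10 members was thus at least 36.4-fold higher in Eed-/- neurons. Counting intervals given below cover counting error only, since Smart-seq v2 reads carry no molecular identifiers. Fold bounds of this kind cover it only for the group at 0, as they take the count of the higher group as it stands. Bounds on few reads in that higher group can therefore be too high. In such bulk samples, a difference in the number of expressing cells and a difference in RNA per cell cannot be told apart.

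**Figure D2:**
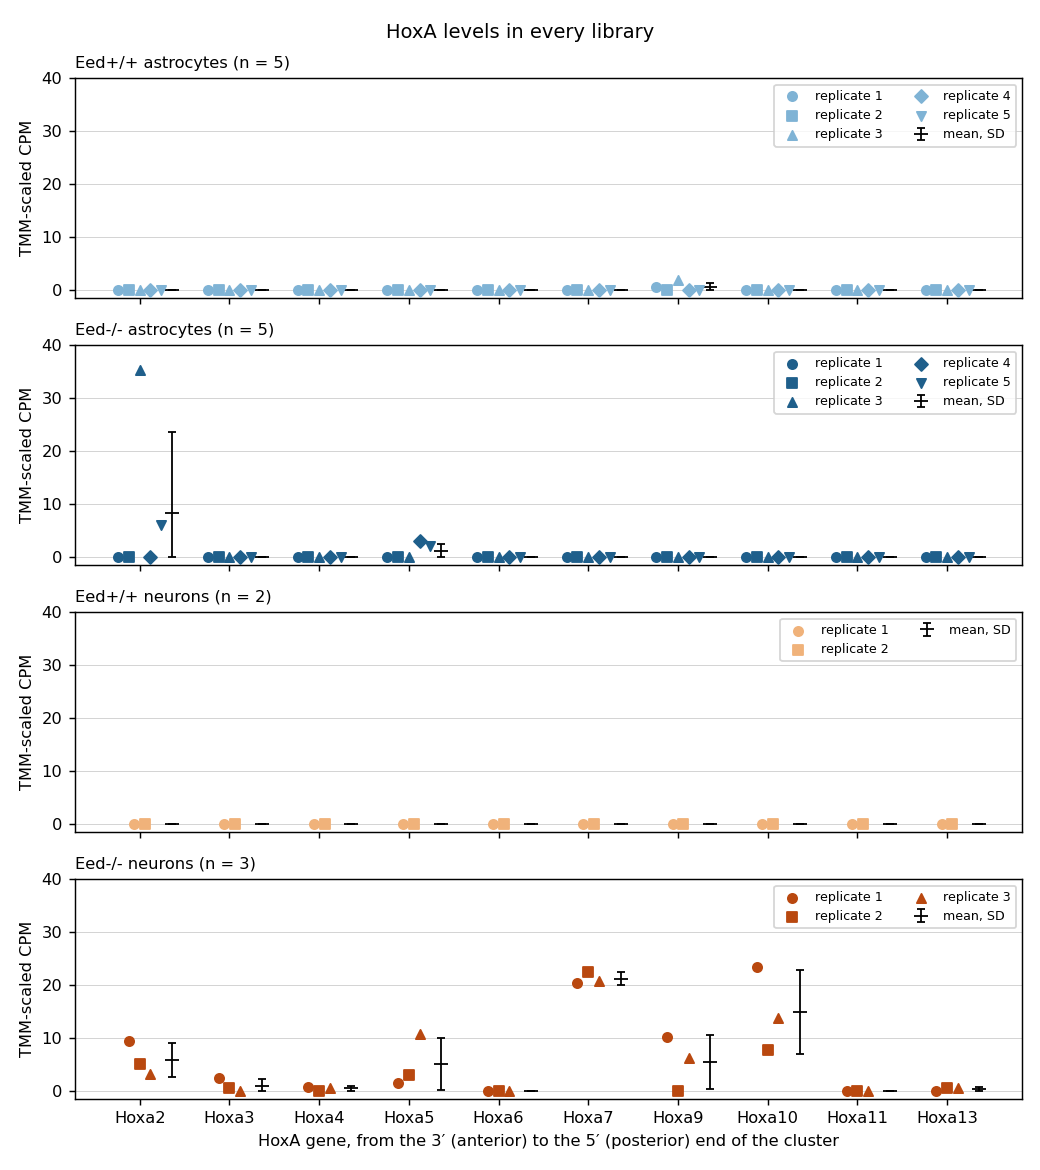
TMM-scaled CPM (y axis) of each HoxA gene (x axis, in cluster order) in every library, with 1 panel per group, 1 marker shape per replicate number and a black bar for the mean and SD (bars stop at 0). Eed-/- neurons show Hoxa7 near 21 CPM in all 3 libraries and a wider spread for Hoxa10, Eed+/+ neurons are at 0 throughout, and astrocytes have signal only at Hoxa2, Hoxa5 and Hoxa9.

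Hoxa7 (ENSMUSG00000038236, chr6:52214491-52221854), which helps to pattern the thoracic region, was the member with the most reads. Eed-/- neurons had 26, 44 and 33 reads, or 20.3, 22.6 and 20.8 CPM (mean 21.2 ± 1.19 SD, n = 3), and Eed+/+ neurons had 0 in both libraries. The 3 Eed-/- libraries lay close together and did not overlap the Eed+/+ libraries. The level was at least 14.8-fold higher in Eed-/- neurons. edgeR's quasi-likelihood test gave a log2 fold change of 7.88 (SE 1.82) and a Benjamini-Hochberg adjusted p of 0.644 over 11862 genes. A fitted fold change against a group at 0 depends on the test's prior count and is no bound.

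Hoxa10 (ENSMUSG00000000938, chr6:52231197-52240854), known for its part in the lumbar skeleton and the uterus, came next. It had 30, 15 and 22 reads in Eed-/- neurons, or 23.5, 7.70 and 13.8 CPM (mean 15 ± 7.95 SD, n = 3), and 0 reads in both Eed+/+ libraries. The groups again did not overlap, and the spread among Eed-/- libraries was wider than for Hoxa7. The level was at least 9.64-fold higher in Eed-/- neurons (edgeR log2 fold change 7.36, SE 2.00, adjusted p = 0.644).

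Hoxa7 and Hoxa10 together held 56 of 87, 59 of 77 and 55 of 89 HoxA reads, which is 64.4%, 76.6% and 61.8% of the cluster's reads in Eed-/- neuron replicates 1, 2 and 3. The division between them was not constant, since Hoxa10 took 34.5% in replicate 1 and 19.5% in replicate 2, where Hoxa7 took 57.1%.

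Hoxa9 (chr6:52223100-52231089), between these genes on the chromosome and known for its part in blood progenitors and the trunk skeleton, was uneven. Eed-/- neuron replicates 1 and 3 had 13 and 10 reads (10.2 and 6.29 CPM) and replicate 2, with 2058192 gene reads the deepest neuron library, had 0. Eed+/+ neurons had 0, so the ranges met at 0. The level was at least 3.31-fold higher in Eed-/- neurons over the pooled libraries, with an adjusted p of 0.686 in edgeR's test. The bound was 1.93-fold without Eed-/- replicate 1 and 5.68-fold without replicate 2.

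The anterior gene Hoxa2 (ENSMUSG00000014704, chr6:52162417-52164831), a regulator of hindbrain segments and of the neural crest of the second pharyngeal arch, had 12, 10 and 5 reads in Eed-/- neurons (9.39, 5.13 and 3.15 CPM) and 0 in Eed+/+ neurons. Hoxa5, which is needed for lung and phrenic motor neuron development, had 2, 6 and 17 reads (1.56, 3.08 and 10.7 CPM) and 0 in Eed+/+ neurons. Neither gene overlapped between genotypes. The levels in Eed-/- neurons were at least 3.89-fold (Hoxa2) and 3.60-fold (Hoxa5) higher. Of the 25 Hoxa5 reads 17 were in Eed-/- replicate 3, and without that library the Hoxa5 bound was 1.71-fold. Both were too scarce for the expression filter of the test.

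The remaining members were at the edge of detection or absent. Hoxa3, which shapes the thymus and parathyroid, had 3, 1 and 0 reads in Eed-/- neurons. Hoxa4, an anterior trunk gene, had 1, 0 and 1 reads, and Hoxa13, the most posterior gene, which acts in digits and hindgut, had 0, 1 and 1. None of these levels is distinguishable from the limit in Eed+/+ neurons at this depth. Hoxa6 and Hoxa11, a limb and uterus gene, had no read in any of the 15 libraries. For Hoxa11, 65.0% of exon bases are unshared, because Hoxa11os lies antisense over the rest and reads there count for neither gene.

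Along the chromosome, Hoxa6 (0 reads) sits between Hoxa5 (25 reads over the 3 Eed-/- neuron libraries) and Hoxa7 (103), and Hoxa11 (0) follows Hoxa10 (67). Per kilobase of unshared exon, the level in Eed-/- neurons was highest for Hoxa7 (9.27 ± 0.519 CPM per kb, SD, n = 3), followed by Hoxa10 (4.59 ± 2.43), Hoxa2 (3.91 ± 2.11), Hoxa5 (2.73 ± 2.61) and Hoxa9 (0.999 ± 0.934). Hoxa4, Hoxa3 and Hoxa13 were at 0.351 ± 0.310, 0.218 ± 0.281 and 0.154 ± 0.135 CPM per kb. Only Hoxa7 stood clear of the next gene in that order, with its lowest library at 8.88 CPM per kb and the highest Hoxa10 library at 7.18. Each later neighbour in the order overlapped the one before it.

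By the counting rule, 4 of the 10 members (Hoxa2, Hoxa5, Hoxa7 and Hoxa10) had a read in every Eed-/- neuron library and none in Eed+/+ neurons, and 1.98% of the 23689 genes with any read in neurons did so. A read in any Eed-/- neuron library and none in Eed+/+ neurons was found for 8 of 10 members and for 21.3% of all genes. All Eed-/- libraries lay above all Eed+/+ libraries for the same 4 members and for 11.0% of all genes. With 3 against 2 libraries the two-sided exact permutation test cannot go below 0.2, which these 4 members reached. No member passed edgeR's adjusted p of 0.05 among the 3 that could be tested (Hoxa7, Hoxa9 and Hoxa10), and the share of all genes that did was 0.0%. Those 3 passed the expression filter through the Eed-/- libraries alone, so their unadjusted p-values are not set against those of other genes, of which 862 of 11862 (7.27%) were below 0.05. DESeq2 gave adjusted p-values of 0.0620 for Hoxa7 and 0.131 for Hoxa10, and so no member at 0.05. For the same reason nothing is read from these values against the shares of all genes past 0.05 (0.219%) and past 0.2, the threshold of the study for astrocytes (1.32%).

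In astrocytes, HoxA reads were sparse in both genotypes. Eed+/+ astrocytes held 2 HoxA reads in 9780680 gene reads, both of Hoxa9 and in separate libraries (replicates 1 and 3, at 0.524 and 1.86 CPM). Eed-/- astrocytes held 21 reads in 3882808 gene reads, of Hoxa2 and Hoxa5 alone. The pooled ratio of HoxA reads was 26.4 (exact 95% counting interval 6.47 to 233), and 12 of the 21 reads came from replicate 3. Without that library the ratio was 12.6 (2.62 to 120.3).

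In astrocytes without Eed, Hoxa2 counts of replicates 1 to 5 were 0, 0, 12, 0 and 6, or 0, 0, 35.4, 0 and 6.07 CPM (mean 8.30 ± 15.4 SD, n = 5), and 0 in all 5 Eed+/+ libraries. Only replicates 3 and 5 were above 0, and the genotypes overlapped at 0. The pooled level was at least 15.1-fold higher in Eed-/- astrocytes, and at least 5.62-fold without replicate 3. The two-sided exact permutation test gave p = 0.444, where 5 against 5 libraries could reach 0.00794.

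Eed-/- astrocyte replicate 3 also carried markers of other cell types. Its 10 microglia markers summed to 3321 CPM with 8 of them detected, and its 7 fibroblast and meninges markers to 2040 CPM with 6 detected, where Eed+/+ astrocytes ranged from 0 to 465 and from 9.23 to 104 CPM. Its choroid plexus markers summed to 129.9 CPM, all from 1 of 5 genes and the highest of the 15 libraries, against 0 to 10.8 CPM in Eed+/+ astrocytes. In Eed-/- replicate 5 the microglia markers had 0 reads, the erythroid markers had 0 reads and the fibroblast and meninges markers summed to 65.7 CPM, and Hoxa2 was at 6.07 CPM there. That library had 9 of 10 neuron markers at a sum of 2867 CPM, above the other Eed-/- astrocytes (0 to 1230 CPM) and every neuron library (1042 to 2740 CPM), where Eed+/+ astrocytes ranged from 255 to 3879 CPM. The highest microglia sum (9344 CPM) was in replicate 1, which had no HoxA read. The highest erythroid sum (7801 CPM) was in replicate 4, which had 1 Hoxa5 read and no Hoxa2 read, with fibroblast and meninges markers at 269 CPM. The part of these cells in the Hoxa2 and Hoxa5 reads of replicates 3, 4 and 5 was not tested.

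Hoxa5 had 0, 0, 0, 1 and 2 reads in Eed-/- astrocytes and 0 in Eed+/+ astrocytes, with p = 0.444 in the exact permutation test. Hoxa3, Hoxa4, Hoxa6, Hoxa7, Hoxa10, Hoxa11 and Hoxa13 had no read in any astrocyte library. A read in any Eed-/- astrocyte library and none in Eed+/+ astrocytes was thus found for 2 of 10 members, against 8.93% of the 24464 genes with any read in astrocytes. No member had a read in every Eed-/- library, and 0.00409% of all genes did with none in wild type. None of the 10 members passed the expression filter, and edgeR called 0.0% of the 8956 genes tested, with 108 genes (1.21%) at an unadjusted p of 0.05 and 1 gene (0.0116%) called by DESeq2.

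Both Eed-/- cell types were then compared with each other. Hoxa7 had 103 reads over 3 Eed-/- neuron libraries and 0 over 5 Eed-/- astrocyte libraries, so that its level was at least 27-fold higher in neurons. The bounds were at least 17.6-fold for Hoxa10 and at least 6.03-fold for Hoxa9, the last being 3.52-fold without Eed-/- neuron replicate 1 and 10.4-fold without replicate 2. With the astrocyte replicates 2 and 5 alone, which had enough unique reads, the bounds were 20.1-fold for Hoxa7, 13.1-fold for Hoxa10 and 4.48-fold for Hoxa9. Hoxa5 had 25 against 3 reads, a ratio of 6.56 (exact 95% counting interval 2.00 to 33.9), and without Eed-/- neuron replicate 3 the ratio was 3.12 (0.75 to 18.3). Hoxa2 had 27 against 18 reads, a ratio of 1.18 (0.627 to 2.28). Its ratio was 3.17 (1.28 to 9.40) without Eed-/- astrocyte replicate 3 and 2.63 (1.06 to 7.79) with replicates 2 and 5 alone. Without Eed-/- neuron replicate 1 it was 0.880 (0.413 to 1.85), higher in astrocytes. It was 1.28 (0.618 to 2.62) without neuron replicate 2 and 1.43 (0.733 to 2.83) without neuron replicate 3. Whether the Hoxa2 ratio differed from the ratios of the other members was not tested.

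In edgeR's test of Eed-/- astrocytes against Eed-/- neurons, 4 of the 10 members passed the filter and none had an adjusted p under 0.05, which 0.0598% of 13367 genes had. The adjusted p-values were 0.309 for Hoxa7 and Hoxa10, 0.369 for Hoxa9 and 0.999 for Hoxa2. The fitted log2 difference of Hoxa2 was 0.45 (SE 1.82), higher in astrocytes. The pooled count ratio over all libraries was higher in neurons, so the fit and that ratio ran in opposite directions. Without Eed-/- neuron replicate 1 the ratio was 0.880, in the direction of the fit. Hoxa7, Hoxa9 and Hoxa10 had passed the filter through the neuron libraries alone. Before adjustment 936 genes in all (7.0%) were below 0.05, and DESeq2 called 12 genes (0.114%) but gave no adjusted p to any of these 4 members. Of 4 erythroid genes tested, edgeR called 3 and DESeq2 called 2, all higher in astrocytes. The erythroid markers summed to 5723 and 7801 CPM in Eed-/- astrocyte replicates 1 and 4. With the genotype effect averaged over cell types, Hoxa2 had an edgeR adjusted p of 0.494, and as both Eed+/+ groups were at 0 the size of its fitted effect depends on the prior count and is not given. In that fit edgeR called 0.0% of 13367 genes. The averaged effects of Hoxa7, Hoxa9 and Hoxa10 and the interactions of genotype and cell type for Hoxa2, Hoxa7 and Hoxa10 could not be estimated, with 2 or 3 of the 4 groups at 0. For Hoxa9, also at 0 in 2 groups and with 2 reads in Eed+/+ astrocytes, the edgeR interaction was -8.02 on the log2 scale (SE 3.76, adjusted p = 0.9999), a value that depends on the prior count. In the interaction test edgeR called 0.0524% of genes and no member.

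The other Hox clusters were measured in the same libraries. In Eed-/- neurons HoxB summed to 99.4 ± 28.3 CPM (SD, n = 3; 10 genes), HoxC to 104 ± 24.4 CPM (9 genes) and HoxD to 20.3 ± 3.20 CPM (9 genes), beside 54.5 ± 14.3 CPM for HoxA. HoxA thus made up 22.5%, 15.5% and 20.3% of the reads of all 4 clusters in Eed-/- neuron replicates 1, 2 and 3. The libraries did not rank alike, as replicate 1 was highest for HoxA and HoxB and replicate 3 for HoxC.

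Eed-/- astrocytes had reads of other clusters where HoxA had few. Replicate 2 held 126 HoxB and 85 HoxC reads and 0 HoxA reads, so that HoxA was 0 of 216 Hox reads (exact 95% interval 0 to 1.69%). Replicate 5 held 101 HoxB, 149 HoxC and 20 HoxD reads and 8 HoxA reads, a HoxA share of 2.88% (1.25 to 5.59%). Replicate 3 had 54 HoxC reads, all of 1 gene, no HoxB read and 12 HoxA reads, a HoxA share of 18.2% (9.76 to 29.6%). Eed-/- astrocyte replicate 1 had no Hox read in any cluster, and replicate 4 had 5. The pooled HoxA share was 3.72% of 565 Hox reads in Eed-/- astrocytes and 19.1% of 1322 in Eed-/- neurons. Without replicate 3 the astrocyte share was 1.80% of 499 reads (0.828 to 3.40%).

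**Figure D3:**
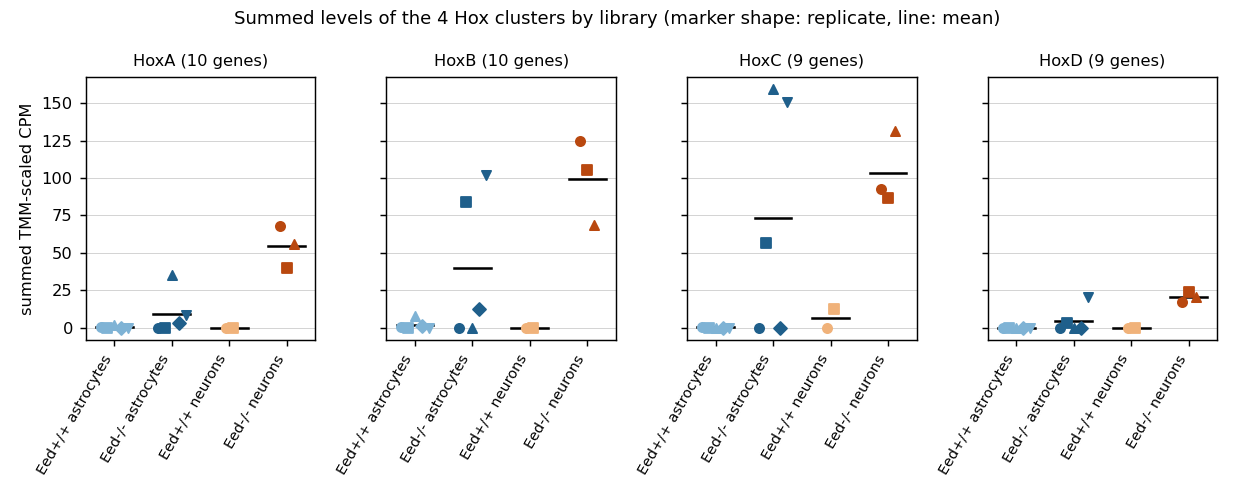
Summed TMM-scaled CPM (y axis) of the genes of each Hox cluster (1 panel each) by group (x axis), with 1 point per library, marker shape for the replicate number and a line at the mean. HoxA is between 39.5 and 68.1 CPM in Eed-/- neurons, while Eed-/- astrocyte replicates 2 and 5 reach 83.8 and 102 CPM for HoxB with 0 and 8.09 CPM for HoxA.

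Around the cluster, 56 annotated genes lay within 500 kb of the members, and 11 of them, members included, had 10 or more reads over the 15 libraries. Hotairm1, a noncoding RNA gene at the anterior end, had 7, 18 and 7 reads in Eed-/- neurons and 0 in both Eed+/+ neuron libraries. In astrocytes it had 0, 0, 9, 0 and 17 reads in Eed-/- libraries and 0, 0, 11, 1 and 0 in Eed+/+ libraries, so the genotypes overlapped. Eed-/- astrocyte replicates 3 and 5 were also those with Hoxa2 reads.

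Next to the 3′ end of Hoxa2, the short RNA gene Gm27477 had 2, 3 and 4 reads in Eed-/- neurons, 5 in Eed-/- astrocyte replicate 5 and none elsewhere. The gene 5730596B20Rik, on the opposite strand within Hoxa3, had 16 of its 18 reads in that same astrocyte library.

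Skap2, an adaptor protein gene of immune and other cells beyond the anterior end, had 24, 82 and 46 reads in Eed-/- neurons (29.9 ± 11.7 CPM, n = 3) and 5 and 4 in Eed+/+ neurons (7.58 ± 6.93 CPM, n = 2), without overlap. In astrocytes it ranged from 0 to 37.2 CPM in Eed-/- and from 0 to 5.24 CPM in Eed+/+ libraries, which overlapped. On the posterior side, the metabolic enzyme gene Hibadh and the autophagy receptor gene Tax1bp1 were read in both genotypes. In neurons Tax1bp1 was at 228 ± 27.5 CPM in Eed-/- (n = 3) and 171 ± 31.7 CPM in Eed+/+ libraries (n = 2), without overlap, and Hibadh at 83.3 ± 34.5 and 45.0 ± 59.3 CPM, with overlap. In astrocytes Hibadh averaged 34.5 CPM in Eed-/- and 108 CPM in Eed+/+ libraries and Tax1bp1 110 and 206 CPM, each with an exact permutation p of 0.0476 before adjustment and with overlap between genotypes. Hibadh was at 0 in Eed-/- astrocyte replicates 1, 3 and 4, which were below the limits on unique reads given above.

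**Figure D4:**
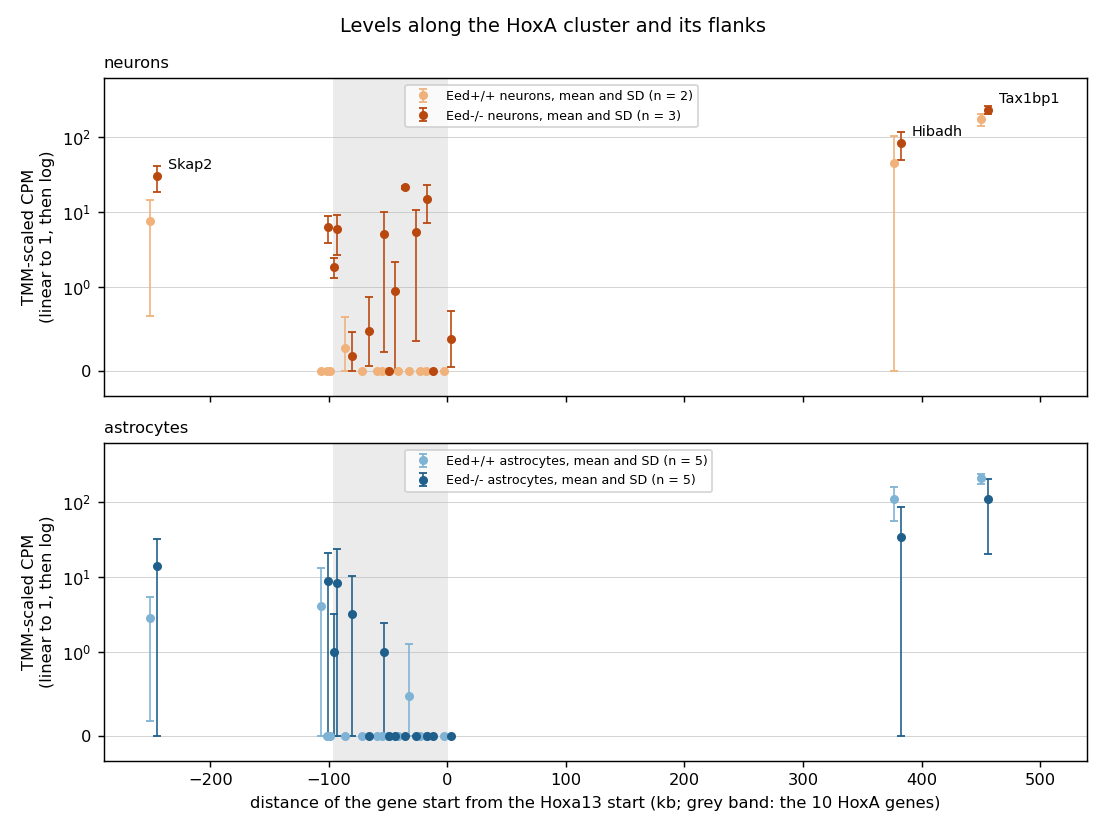
Mean and SD (bars stop at 0) of TMM-scaled CPM (y axis, linear to 1 and logarithmic above) against the distance of each gene's start from the Hoxa13 start in kb (x axis), for the HoxA genes (grey band) and the genes within 500 kb with 10 or more reads. Eed+/+ neurons are at 0 across the HoxA genes while Tax1bp1 is at 171 CPM, and Eed-/- neurons reach 21.2 CPM at Hoxa7.

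Partners and regulators of Hox genes were read in all groups. The TALE cofactors, homeodomain proteins that bind DNA with HOX proteins, summed to 683 to 1324 CPM in Eed-/- neurons and 1178 to 2138 CPM in Eed+/+ neurons, with 9 of 9 genes detected in each group. The PRC2 list, with the methyltransferase gene Ezh2 and its partner Suz12, had 11 of 11 genes detected in every group. Ezh2 averaged 192 and 270 CPM and Suz12 47.0 and 91.0 CPM in Eed-/- and Eed+/+ neurons.

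None of these lists held a gene called by edgeR between genotypes. Of tested genes, the calls in neurons were 0 of 9 TALE cofactors, 0 of 11 PRC2 genes, 0 of 11 PRC1 genes, 0 of 11 activators and demethylases and 0 of 6 retinoic acid and Cdx genes. At an unadjusted p of 0.05, which 7.27% of all genes were below, there were 2, 1, 3, 1 and 1 in the same order, the retinoic acid gene higher and all others lower in Eed-/- neurons, with Crabp1, of the retinoic acid genes, as the only call of DESeq2 in these lists and no call of limma-voom. The median log2 fold changes of these lists in neurons were -0.79, -0.87, -0.41, -1.04 and 0.47, beside 0.15 over all genes tested. In astrocytes edgeR, DESeq2 and limma-voom called 0 genes of each, with edgeR medians of -0.35, -1.07, -0.11, -1.03 and 0.24 beside -0.54 over all genes, and 0 of each at an unadjusted p of 0.05 in edgeR. Of the Cdx genes, upstream regulators of trunk Hox genes, Cdx2 had 2 reads and Cdx1 had 1 in Eed-/- neurons. Cdx1 had 12 reads in Eed-/- astrocytes, all in replicate 1 (20.3 CPM), a library with no read of any Hox cluster.

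Genes outside the Hox clusters whose levels ran most like the HoxA sum were En1 (Pearson r 0.821), Crabp1 (0.783), Cnpy1 (0.737), Npy (0.701) and Gpc3 (0.699). These values describe log2(CPM + 1) over 15 libraries, among 11006 genes, and the libraries share their cell types and depth. En1, a homeobox gene of the midbrain, hindbrain and spinal cord, was at 20.0 ± 0.931 CPM in Eed-/- neurons (n = 3), 0 in both Eed+/+ neuron libraries and 1.42 ± 3.17 CPM in Eed-/- astrocytes (n = 5). Crabp1, a retinoic acid binding protein gene, was at 106 ± 18.1 CPM in Eed-/- and 0.537 ± 0.759 CPM in Eed+/+ neurons.

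Markers of the spinal cord and hindbrain were therefore listed beside the HoxA reads of neurons. Their 8 genes summed to 182, 141 and 183 CPM in Eed-/- neurons and to between 68.1 and 159 CPM in Eed+/+ neurons, where 3 of 8 were detected, so that the sums overlapped. Lbx1, Tlx3, En1 and En2 were at 0 in Eed+/+ neurons and had 44, 29, 96 and 25 reads over the Eed-/- neurons. None of the 4 tested was called by edgeR, DESeq2 or limma-voom, with 2 at an unadjusted p of 0.05 in edgeR. The neuron markers summed to 1596 to 2740 CPM in Eed-/- and 1042 to 1785 CPM in Eed+/+ neurons, with overlap, but single markers differed among themselves, and 4 of them, chosen after their values were seen, are given. The median log2 fold change of the 10 markers was 2.01, beside 0.15 over all genes tested. Neurod6, a transcription factor gene of cortical excitatory neurons, was at 70.4, 143 and 150 CPM in Eed-/- and 16.1 and 0 CPM in Eed+/+ neurons and was called higher by DESeq2 (adjusted p = 0.0343) and not by edgeR (adjusted p = 0.644). Rbfox3, which encodes the neuronal marker NeuN, was at 33.6, 48.8 and 96.9 CPM against 10.2 and 0 CPM, without a call. Map2, a cytoskeletal gene of dendrites, was lower on average in Eed-/- neurons (268 ± 165 CPM, n = 3) than in Eed+/+ neurons (455 ± 40.8 CPM, n = 2), without a call, and Dcx, of migrating young neurons, averaged 270 and 255 CPM. At an unadjusted p of 0.05, which 7.27% of all genes were below, 4 of the 10 markers were higher in edgeR and none lower. Microglia markers summed to 124, 106 and 13.8 CPM in Eed-/- neurons and to 23.1 and 0 CPM in Eed+/+ neurons, with overlap. Erythroid markers had 0, 11 and 2 reads in Eed-/- and 52 and 0 in Eed+/+ neurons. Markers of the oligodendrocyte lineage summed to between 2454 and 3824 CPM in Eed-/- and to 2859 and 1348 CPM in Eed+/+ neurons, above the neuron markers in 4 of the 5 libraries. The part of the cell makeup in the HoxA reads of neurons was not tested.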

How the data were processed

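RNA-seq was done on FACS-sorted cells, and 16 libraries were available, of which 15 had a group in the labels and 1 did not. The authors prepared Smart-seq v2 libraries, mapped them by STAR (build GRCm38/mm10, per the submitters' processing notes) and deposited raw read counts per gene, neither normalized nor pooled. Genes were counted on an annotation release not given in the sources used here. Reads of either strand were present in nearly equal shares, so the unstranded counts (column 2) were used, in which reads over overlapping genes had been set aside (0.934% to 5.66% of unique reads). The 4 lines of totals that open each file (reads without a gene, 8.55% to 71.6% of unique reads in the grouped libraries, among them) stayed out. The files held 0 columns without a sample. The study left out some libraries that its methods do not name, so none of the 15 was dropped.

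Symbols, exons and positions came from GENCODE mouse release M21 on GRCm38, which matched 53274 of 53379 identifiers. Counts were tested with edgeR 4.0.16 (R 4.3.3) by quasi-likelihood F tests with TMM scaling, filterByExpr and Benjamini-Hochberg adjustment over all genes tested, within each cell type for genotype and over all 15 libraries for cell type, averaged and interaction effects. Checks used DESeq2 1.42.0, limma 3.58.1, other scalings, filters and libraries. Single members were tested by two-sided exact permutation tests of CPM (the smaller tail doubled), and no p was adjusted over the members. Levels per kb used exon bases shared with no other gene. Bounds on folds were set against 3 counts over the lower group, on pooled reads per gene read, with no allowance for counting error in the higher group. p-values measure the spread between libraries of 1 series, and the fits over both cell types took all 15 libraries as independent. The tests were tried on simulated data first. At the spread estimated from these libraries, edgeR called 0% of genes changed 16-fold in astrocytes and 0% for the averaged effect. In neurons it called 73% at 16-fold and 3% at 4-fold. With a low spread set instead, 93% or more of 16-fold changes were called in each. Few or no calls in these comparisons therefore do not show that genes were unchanged.

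Same-numbered libraries were not treated as pairs, and their correlations ranged from -0.289 to 0.195. With so few libraries per group these values cannot exclude that an astrocyte and a neuron library came from the same animal. Library numbers fell into 2 runs, with all neurons in 1 of them, and each run held 1 Eed-/- astrocyte library with Hoxa2 reads. The members and gene lists were chosen with earlier results of these data known. Named genes were the members, Eed, genes within 500 kb with 10 or more reads, the PRC2 core, and the 5 genes most like the HoxA sum among those with 20 or more reads in 3 libraries. Genes singled out beyond these (Cdx1, Cdx2, Lbx1, Tlx3, En2 and 4 neuron markers) were chosen after their values were seen. Some results are not reported here. Protein sequences were not used here.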

Additional observations from a re-analysis of the deposited data

Results flagged for a closer look

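Libraries that stood far from the others of their group by Dixon's gap-to-range ratio (critical value 0.71 for 5 libraries) are given here, all of them astrocyte libraries, since groups of 2 and 3 were not tested. Chance flags about 1 in 20 such sets, 42 sets were tested and 20 were past the value, and most sets held several libraries at 0. Among the members these were Hoxa2 in Eed-/- replicate 3 (35.4 CPM, the next at 6.07) and Hoxa9 in Eed+/+ replicate 3 (1.86 CPM, a single read). The HoxA sum was apart in the same libraries, at 35.4 CPM in Eed-/- and 1.86 CPM in Eed+/+ replicate 3. Of the other clusters, HoxB was apart in Eed+/+ replicate 3 (7.43 CPM), HoxC in Eed+/+ replicate 1 (0.524 CPM) and HoxD in Eed-/- replicate 5 (20.2 CPM).

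Near the cluster, Hotairm1 was apart in Eed+/+ replicate 3 (20.4 CPM), and Gm27477 (5.06 CPM) and 5730596B20Rik (16.2 CPM) in Eed-/- replicate 5. Of the genes most like the HoxA sum, En1 (0.524 CPM), Npy (4.19 CPM) and Gpc3 (9.43 CPM) were apart in Eed+/+ replicate 1, En1 (7.08 CPM) and Crabp1 (100.1 CPM) in Eed-/- replicate 5, and Gpc3 (195 CPM) in Eed-/- replicate 3. Among marker sums, microglia (465 CPM) and fibroblast and meninges markers (104 CPM) were apart in Eed+/+ replicate 2, blood progenitor markers in Eed-/- replicate 1 (311 CPM) and fibroblast and meninges markers in Eed-/- replicate 3 (2040 CPM).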

How the results depend on the processing

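No member passed an adjusted p of 0.05 wherever one was given, but in astrocytes 17 of 20 settings tested no member, and DESeq2 gave members no adjusted p between Eed-/- cell types or for the interaction, so these show nothing of stability. No single-member exact test passed 0.05, which the neuron comparison could not reach. At 0.2, Hoxa7 and Hoxa10 passed in neurons with DESeq2 (1.32% of all genes passed), without a filter (Hoxa7 0.0514; 1.2% of genes) and without Eed+/+ neuron replicate 1 (Hoxa7 0.0507; 44.4% of genes), where the lone Eed+/+ library is assumed to vary like the others. Hoxa2 passed 0.2 in astrocytes with a filter of mean count above 1 (0.182; 2.81% of genes) and in the fit of all 15 libraries (0.107; 2.77% of genes). Without Eed-/- astrocyte replicate 5, Hoxa7, Hoxa9 and Hoxa10 passed it between Eed-/- cell types (lowest 0.0730), as did 14.8% of all genes. Members entered a filtered test only through the groups where they had reads, so nothing is read from these passes against the shares of all genes. Bounds, count ratios and shares without single libraries were added after seeing the data. The log2 difference of Hoxa2 between Eed-/- astrocytes and neurons, 0.45 as reported, turned to -1.12 with limma-voom, -1.01 with the libraries of enough unique reads and -2.04 with the replicate block, never past the threshold. The replicate block, with numbers that are not known to pair the libraries, made 0 calls of members. The mean HoxA sum of Eed-/- astrocytes, 9.32 CPM, was 2.80 CPM without replicate 3. The bounds against Eed+/+ neuron replicate 1 alone, chosen after seeing the data, were 12.4-fold for Hoxa7 and 8.09-fold for Hoxa10. Eed-/- astrocytes held 3882808 gene reads in all, so members under 0.773 CPM over the group were not detectable.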
